A study of Rattus norvegicus with 56 samples.

Results

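The machinery that releases synaptic vesicles was followed in the dorsal striatum of 56 rats through 43 genes, with 1 Affymetrix Rat230_2 array per rat. The genes were chosen by name: the numbered synaptotagmins, syntaxins, syntaxin binding proteins, vesicle-associated membrane proteins and SNAP proteins, synapsins 1 to 3, Sv2a and Sv2c, complexins 1 to 4, Rims 1 to 4 and the Unc13 genes. Of 31099 probe sets on the array, 86 carry 1 such name and no other, and they stand for 58 genes. A gene was kept where its brightest probe set had a mean log2 signal above 5 over the 56 arrays, which left 43 genes. Each gene is given by that probe set, and Stxbp6 by both of its probe sets, so 44 probe sets are described. All 44 were among the 18625 probe sets tested. Just inside the limit lay Syt10 with a mean of 5.07, Syt11 with 5.19 and Cplx3 with 5.22. Just outside lay Stxbp2 and Sv2c, each with a mean of 4.72. The other genes outside were Rims3, Stx11, Stx17, Syn3, Syt2, Syt7, Syt8, Syt9, Syt13, Syt15, Unc13a, Unc13b and Unc13d.

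A synaptic vesicle docks at the active zone, where Rims and Unc13 proteins hold and prime it. The vesicle protein Vamp2 then pairs with syntaxin 1 and Snap25 on the plasma membrane, and the assembled SNARE complex pulls the membranes together. Complexins bind the assembled complex, and synaptotagmin 1 acts as the calcium sensor that lets fusion proceed. Synapsins tether vesicles in reserve, and Sv2 proteins are vesicle membrane glycoproteins. Many relatives in the same families serve other membranes: Stx5 and Stx18 act between the endoplasmic reticulum and the Golgi, Stx6 and Stx16 at the trans-Golgi network, and Stx7, Stx8, Stx12 and Vamp7 in endosomes and lysosomes. In the striatum the terminals come largely from cortex, thalamus and the midbrain dopamine neurons, whose RNA stays mostly in cell bodies elsewhere, so striatal RNA reports mainly the cells whose bodies lie in the tissue.

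The series asked how the rewarding effect of pramipexole after nigral loss and L-dopa relates to gene expression. Male Crl:OFA (Sprague Dawley) rats had bilateral loss of nigral dopamine neurons caused by an AAV vector, or were sham rats given the same vector with GFP, so that every rat carried a viral vector. From 5 weeks after the lesion they received L-dopa methyl ester at 50 mg/kg with benserazide, or saline, daily under the skin for 3 weeks. They were then place-conditioned in 40 min sessions with pramipexole, a dopamine D2/D3 receptor agonist, at 2 mg/kg, or with saline, and were killed 24 or 48 h after the last dose. Crossing model, treatment and conditioning gives 8 groups of 7 rats, named here in that order. The values are log2 signals, a change is a difference of mean log2 values with its SE, and calls were made in limma where p, adjusted by Benjamini-Hochberg over all 18625 probe sets, was under 0.05. In this bulk tissue fewer cells of a type and less RNA per cell cannot be told apart, and precision is set by the number of arrays.

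The 9 measured markers of striatal spiny neurons had mean log2 signals from 9.66 (Drd2) to 12.20 (Penk). The 8 measured markers of cerebral cortex ran from 1.45 (Tbr1) to 10.37 (Lamp5), and 6 of them passed the filter on low signal. Samples numbered 1 to 37 hold all 28 lesioned rats, the 7 sham rats given L-dopa and pramipexole and 2 sham rats given L-dopa and saline. Samples numbered 38 to 56 hold 19 sham rats and no lesioned rat. This split was found from the values, and the labels do not name it as a batch. The split is measured in 2 rats against 5 of 1 group. A lesion comparison that keeps it as a term still averages over all drug conditions, with the saline-treated groups corrected by that estimate. The lesion fit within samples 1 to 37 rests on the L-dopa groups alone. Its sham groups, of 7 and 2 rats, count equally there. The groups also differed in the excess of 3' over 5' signal of the actin and GAPDH control probe sets, a measure of RNA quality: its group means ran from 0.87 in undrugged lesioned rats to 1.11 in lesioned rats given L-dopa and saline.

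Sequence upstream of the release genes was taken from RefSeq for the GRCr8 build. Windows of 250 bases ending at the start site matched 34 of the 43 genes, with 38 windows in all. Their median GC content was 60.2%, against 51.2% over all 33469 windows of the rat genes. A GC box (GGGCGG, either strand) stood in 21 of 38 windows, 55.3%, against 30.5% of all windows. The cyclic AMP response element TGACGTCA stood in 2 windows, those of Syn1 and Vamp1, which is 5.3% against 1.6%. TATAAA stood in 3 windows, 7.9% against 12.9%, and the E-box CACGTG in 4, 10.5% against 5.6%. The motifs were searched on both strands and do not contain one another. These are matches of letters, not measured sites. The window of Stxbp6 is shown because its dimmer probe set had the largest lesion change of those described. That of Syn1 is shown because it had the smallest p-value of the release genes for L-dopa in lesioned, saline-conditioned rats. The Stxbp6 window lies at chr6:67884339-67884588 on the minus strand and holds none of the motifs searched. The Syn1 window lies at chrX:3725495-3725744 on the plus strand, and the capitals mark its response element.
Stxbp6: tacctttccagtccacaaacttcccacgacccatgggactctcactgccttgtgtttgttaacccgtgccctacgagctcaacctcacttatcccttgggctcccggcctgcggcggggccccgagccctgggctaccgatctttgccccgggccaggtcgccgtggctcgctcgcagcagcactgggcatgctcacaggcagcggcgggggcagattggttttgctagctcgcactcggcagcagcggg
Syn1: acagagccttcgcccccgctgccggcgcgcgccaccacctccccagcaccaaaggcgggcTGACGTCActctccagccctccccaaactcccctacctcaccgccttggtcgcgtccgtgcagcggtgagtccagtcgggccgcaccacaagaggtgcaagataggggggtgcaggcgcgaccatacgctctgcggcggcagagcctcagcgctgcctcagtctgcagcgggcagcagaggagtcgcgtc

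The release genes varied from rat to rat about as much as the tested probe sets in general. Over 56 arrays the median SD of the 43 genes was 0.17, and that of all tested probe sets was 0.18. The steadiest was Stx16, a SNARE of the trans-Golgi network, with an SD of 0.067. The most variable was Cplx3, a complexin best known from ribbon synapses of the retina, with an SD of 0.52 at a low mean signal of 5.22. The 8 group means of a gene spanned a median of 0.19, against 0.21 for all tested probe sets. In 11 of the 43 genes, and in 21.2% of all tested probe sets, the lowest group mean was that of undrugged lesioned rats, the group with the lowest 3' to 5' measure. These genes were Snap25, Cplx2, Stxbp5, Vamp2, Sv2a, Syn2, Syn1, Syt11, Rims1, Stx1a and Syt17. The same group had the highest mean for 6 genes, and for 14.6% of all probe sets. Lesioned rats given both drugs were lowest for another 10, Stx16, Syt16 and Cplx3 among them (12.2% of all), and highest for 5 (13.4% of all). The other 6 groups were lowest for 2 to 6 genes each, and for 8.82% to 12.3% of all probe sets.

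**Figure D1:**
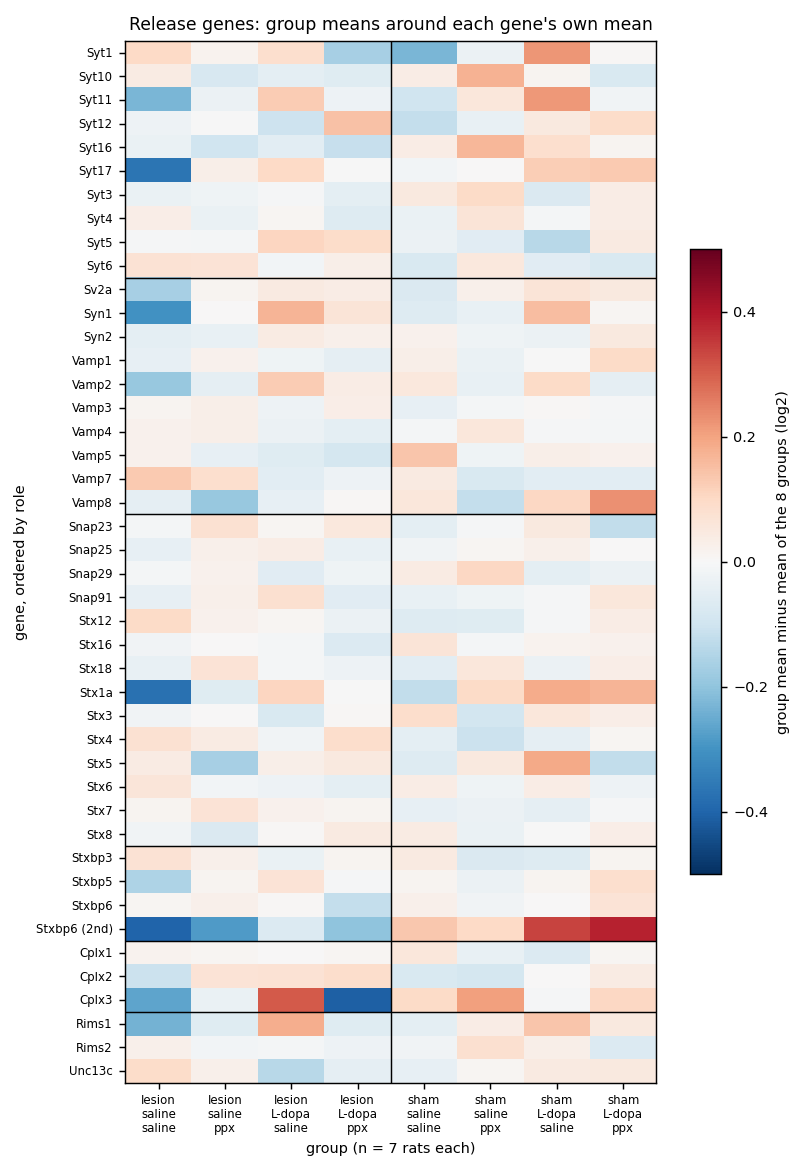
Mean log2 signal of each release gene (rows, grouped by role) in each of the 8 groups of 7 rats (columns), drawn as the difference from the mean of that gene's 8 groups; both Stxbp6 probe sets are shown, the dimmer as 2nd. Most cells are pale, since the median span of a gene's 8 group means is 0.19. The undrugged lesioned group holds the lowest mean of 11 of 43 genes, against 21.2% of all tested probe sets. It holds the highest mean of 6 genes, against 14.6%.

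Between lesioned and sham rats most release genes showed no difference past the test. The sample-number split limits this comparison, so it does not show that they were unchanged. Over 28 lesioned and 28 sham rats 1 of 43 genes passed the test, Syt16, an atypical synaptotagmin, which fell. Over all tested probe sets 5.07% were called in this comparison, and 2.85% were called lower. The second Stxbp6 probe set, which is outside this count, was also called lower. At an unadjusted p under 0.05 lay 6 of the 43 genes, against 19.7% of all probe sets. The median change was -0.02 for the release genes and -0.01 over all probe sets, and the changes ran from -0.20 to 0.09.

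Stxbp6, also called amisyn, holds a SNARE motif like that of Vamp2 without a membrane anchor and is known to restrain vesicle fusion. Its dimmer probe set had values of 5.94, 6.24 and 7.06 (lowest, median and highest of 7 rats) in undrugged lesioned rats. In lesioned rats given pramipexole alone they were 6.10, 6.75 and 6.87. Both groups reached into the range of undrugged sham rats, which was 6.38, 6.89 and 7.43.
With L-dopa and saline the lesioned rats had 5.78, 7.01 and 7.25, and with both drugs 5.64, 6.67 and 7.28. The matching sham rats had 6.69, 7.03 and 7.49 with L-dopa and saline, and 6.78, 7.23 and 7.41 with both drugs. Sham rats given pramipexole alone had 5.97, 7.04 and 7.36. In each of the 4 drug conditions the lesioned mean was below the sham mean, and the ranges overlapped.

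Over all conditions the mean was 6.58 in lesioned and 7.06 in sham rats, a change of -0.48 ± 0.11 (95% interval -0.70 to -0.26, limma adjusted p = 0.0047). Of 28 lesioned rats, 25 lay below the mean of their matched sham group. Leaving out any 1 rat kept the change between -0.52 and -0.44. With the sample-number split as a term it was -0.54 ± 0.26, and the call was lost (unadjusted p = 0.044, adjusted p = 0.998 in limma). Within samples 1 to 37, 14 lesioned L-dopa rats against 9 sham L-dopa rats, it was -0.53 ± 0.21 (limma adjusted p = 0.851). The size of the difference was thus about the same inside samples 1 to 37, with a larger error.

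The brighter Stxbp6 probe set did not show this change. Its mean was 8.88 in lesioned and 8.92 in sham rats, a change of -0.04 ± 0.04 (limma adjusted p = 0.655). Lesioned rats lay at 8.47, 8.87 and 9.31 and sham rats at 8.69, 8.92 and 9.26, so the lesioned range enclosed that of the sham rats. Within samples 1 to 37 the change was -0.12 ± 0.08. The mean of both probe sets changed by -0.26 ± 0.06 (limma adjusted p = 0.0082). No test of a difference between the probe sets was made, and which transcripts each detects was not analysed here.

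Syt16 had an SD of 0.16 over the 56 arrays, and its lesion change was small. Undrugged lesioned rats lay at 8.09, 8.36 and 8.46, and those given pramipexole alone at 8.11, 8.22 and 8.34. Undrugged sham rats lay at 8.19, 8.33 and 8.51, and sham rats given pramipexole alone at 8.36, 8.53 and 8.58. The undrugged groups overlapped, and those given pramipexole alone lay narrowly apart, at 8.34 against 8.36. That pair was not among the comparisons tested, and its gap was picked out after the values were seen. How many of all probe sets lay apart in it was not counted. In both pairs all lesioned rats are numbered 1 to 37 and all sham rats 38 to 56, so lesion and split cannot be told apart.
With L-dopa and saline the lesioned rats had 8.07, 8.28 and 8.45 against 8.24, 8.40 and 8.55 in sham rats. With both drugs they had 7.92, 8.19 and 8.40 against 7.81, 8.40 and 8.56. Here the lowest value of all belonged to a sham rat, sample 29. Over 28 against 28 rats Syt16 was at 8.25 and 8.40, a change of -0.15 ± 0.04 (95% interval -0.23 to -0.07, limma adjusted p = 0.012), with 22 of 28 lesioned rats below the mean of their matched sham group.
With the sample-number split as a term it was -0.09 ± 0.09 (adjusted p = 0.998), and within samples 1 to 37 it was -0.10 ± 0.09 (adjusted p = 0.955 in limma), so the call was lost in both. Syt16 had a mean of 8.27 in samples 1 to 37 and 8.43 in samples 38 to 56, where no lesioned rat lies. In sham rats given L-dopa and saline, the 1 group with rats on both sides, it was 8.35 in 2 rats and 8.43 in 5. The part of the split in the Syt16 change cannot be told apart from the lesion outside the L-dopa groups. With the split as a term, limma called 0 of all 18625 probe sets in this comparison, 4.31% lay at an unadjusted p under 0.05, and so did 1 of the 43 release genes.

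**Figure D2:**
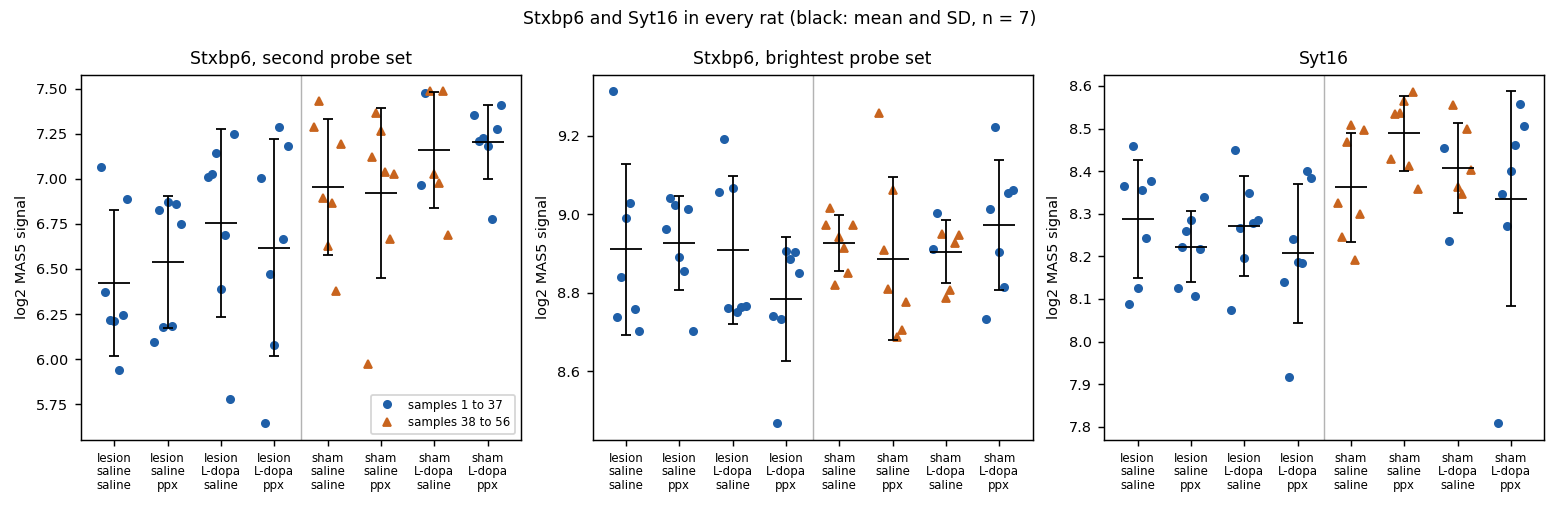
Log2 signal of each rat (points) in the 8 groups for the dimmer (second) and the brightest Stxbp6 probe set and Syt16, with group means and SD in black. Circles are samples 1 to 37 and triangles samples 38 to 56. Lesioned rats sit lower for the dimmer Stxbp6 probe set (6.58 against 7.06) and slightly lower for Syt16 (8.25 against 8.40), with overlapping ranges, and all rats numbered 38 to 56 are sham.

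The genes of the core fusion proteins showed no lesion change past the test. Their 95% intervals come from the fit of 8 group means, without the sample-number split. Snap25, the plasma membrane SNARE, was at 12.53 in lesioned and 12.54 in sham rats, a change of -0.01 (interval -0.06 to 0.04). Its 8 group means lay between 12.49 and 12.57. Vamp2, its partner on the vesicle, changed by -0.03 (-0.13 to 0.06). Stx1a, the syntaxin of the plasma membrane, changed by -0.16 (-0.35 to 0.02, limma adjusted p = 0.328), the widest interval of these SNAREs. Syt1, the calcium sensor, changed by 0.02 (-0.12 to 0.15). Within samples 1 to 37, 14 lesioned against 9 sham rats, Snap25 changed by 0.00 ± 0.05, Vamp2 by 0.07 ± 0.07, Stx1a by -0.14 ± 0.12 and Syt1 by -0.20 ± 0.10. The values of Syt1 and Vamp2 there lie outside the intervals above, which take no account of the split. The fit within samples 1 to 37 holds L-dopa rats only, so drug condition changes along with the split. The part of each in these shifts was not tested.

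Proteins that act around the fusion step gave the same picture. Cplx1, which binds the assembled complex, changed by 0.02 (-0.03 to 0.07) and Cplx2 by 0.06 (-0.02 to 0.14). With the 3' to 5' measure as a term Cplx2 was called higher, at 0.10 ± 0.03 (limma adjusted p = 0.033), and Syt16 remained called at -0.17 ± 0.04 (adjusted p = 0.0032), while 5.63% of all probe sets were called in that fit. The vesicle tethers Syn1 and Syn2 changed by -0.03 (-0.16 to 0.09) and -0.01 (-0.12 to 0.11), and the vesicle glycoprotein Sv2a by -0.03 (-0.14 to 0.07). The other tested probe sets of Syn1 and Syn2 had the opposite sign. Syn1 was at 0.08 ± 0.09 there, and Syn2 at 0.17 ± 0.06 (limma adjusted p = 0.077) and 0.07 ± 0.06. Rims1, a scaffold of the active zone, changed by -0.09 (-0.25 to 0.08). By role, the change was above 0 in 4 of 10 synaptotagmins, 2 of 10 synapsin, Sv2 and Vamp genes, 5 of 14 syntaxin and SNAP genes, 1 of 3 syntaxin binding proteins, 2 of 3 complexins and 0 of 3 active zone genes. In all it was above 0 in 14 of 43 genes, 44.8% being the share over all probe sets.

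**Figure D3:**
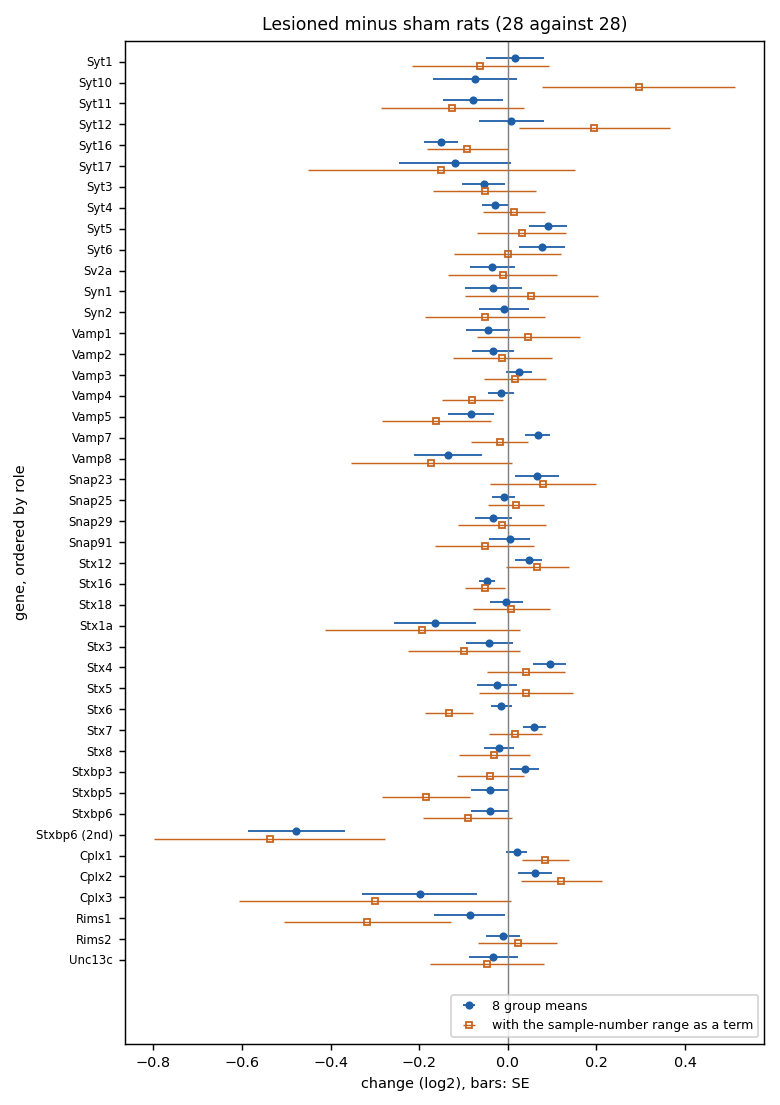
Lesion change of each release gene (log2, lesioned minus sham, 28 against 28 rats) ordered by role. Blue circles come from the fit of 8 group means, orange squares from the fit with the sample-number split as a term, and bars are the SE. The dimmer Stxbp6 probe set (2nd) lies at -0.48 and -0.54, and the brightest of that gene at -0.04 without the term. Dimmer probe sets of other genes are not drawn. Syt16 moves from -0.15 to -0.09, and most other genes lie near 0 with longer orange bars.

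In rats that received neither drug, 7 lesioned against 7 sham, limma called 0 of the 43 release genes, against 1.07% of all probe sets. At an unadjusted p under 0.05 lay 4 of them, against 13.7%. The smallest p-values belonged to Stx12, an endosomal syntaxin (0.16 ± 0.06, adjusted p = 0.197), Vamp2 (-0.24 ± 0.09, adjusted p = 0.220) and Syt1 (0.33 ± 0.13, adjusted p = 0.235, all limma). Vamp2 lay at 8.99, 9.44 and 9.69 in the undrugged lesioned rats, and Syt1 at 5.54, 6.38 and 6.53 in the undrugged sham rats. The dimmer Stxbp6 probe set differed by -0.53 ± 0.22 (adjusted p = 0.247) and the brighter by -0.02. All of these lesioned rats are numbered 1 to 37 and all of these sham rats 38 to 56. The lesion and the sample-number split therefore cannot be told apart here. The 3' to 5' measure also differed, at 0.87 in the lesioned and 1.06 in the sham rats, and with it as a term Stx12 was at 0.04, Vamp2 at -0.04 and Syt1 at 0.15.

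In rats that received both drugs, all numbered 1 to 37, limma called 0 of the 43 genes, against 0% of all probe sets. At an unadjusted p under 0.05 lay 2 of them, against 6.83%. Stxbp6 differed by -0.59 ± 0.22 in the dimmer probe set (adjusted p = 0.654, 6 of 7 lesioned rats below the sham mean) and by -0.19 ± 0.09 in the brighter (adjusted p = 0.703, 7 of 7). Cplx3 differed by -0.51 ± 0.26 (adjusted p = 0.739) and Stx16 by -0.09. The effect of the lesion with both drugs was set against that without drugs in 1 term. The smallest p-values were those of Syt1, at -0.50 ± 0.19 (adjusted p = 0.294), and Stx12, at -0.23 ± 0.09 (adjusted p = 0.294), and 0 of the 43 genes passed, against 0.134% of all probe sets, with 3 at an unadjusted p under 0.05, against 10.7%.

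The question of L-dopa in lesioned rats is answered most directly by 7 L-dopa and 7 saline rats, all conditioned with saline and all numbered 1 to 37. Limma called 0 of the 43 genes, against 0.0161% of all probe sets. At an unadjusted p under 0.05 lay 11 of the 43, against 12.9% of all probe sets. Syn1, which tethers vesicles to one another and to the cytoskeleton, had the smallest p-value. Its values were 6.95, 7.24 and 7.79 without L-dopa and 7.35, 7.92 and 8.12 with it. The difference was 0.47 ± 0.13 (95% interval 0.22 to 0.73, limma adjusted p = 0.135), and 7 of 7 L-dopa rats lay above the saline mean, although the ranges overlapped. Without sample 22, a saline rat, the difference was 0.55 and was called (adjusted p = 0.039). In 13 of the 14 fits with 1 rat left out it was not called, and the difference was as low as 0.41. The other Syn1 probe set differed by 0.45 ± 0.19 (adjusted p = 0.283).

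The genes Vamp2 and Vamp7 stood next in order of p-value, with opposite signs. Vamp2 lay at 8.99, 9.44 and 9.69 without L-dopa and at 9.47, 9.64 and 9.87 with it, a difference of 0.32 ± 0.09. Vamp7, a SNARE of lysosomes and late endosomes, lay at 8.75, 8.92 and 9.02 and at 8.63, 8.69 and 8.86, a difference of -0.18 ± 0.05. The adjusted p was 0.159 for both in limma, and for both the ranges overlapped. Stx1a differed by 0.48 ± 0.19 (adjusted p = 0.252), from 5.31, 6.00 and 6.94 to 6.19, 6.55 and 7.08. Rims1 differed by 0.42 ± 0.16 (adjusted p = 0.257), from 4.53, 5.25 and 5.69 to 5.43, 5.59 and 6.25. In each of Vamp7, Stx1a and Rims1, 7 of 7 L-dopa rats lay beyond the saline mean.

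The 11 genes were completed by Syt11 (0.36 ± 0.14), which was chosen after its values were seen, Cplx3 (0.57), Stxbp5 (0.22), Sv2a (0.21), Cplx2 (0.18) and Unc13c (-0.23). Stxbp6 differed by 0.33 ± 0.22 in the dimmer probe set and by -0.00 in the brighter.

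**Figure D4:**
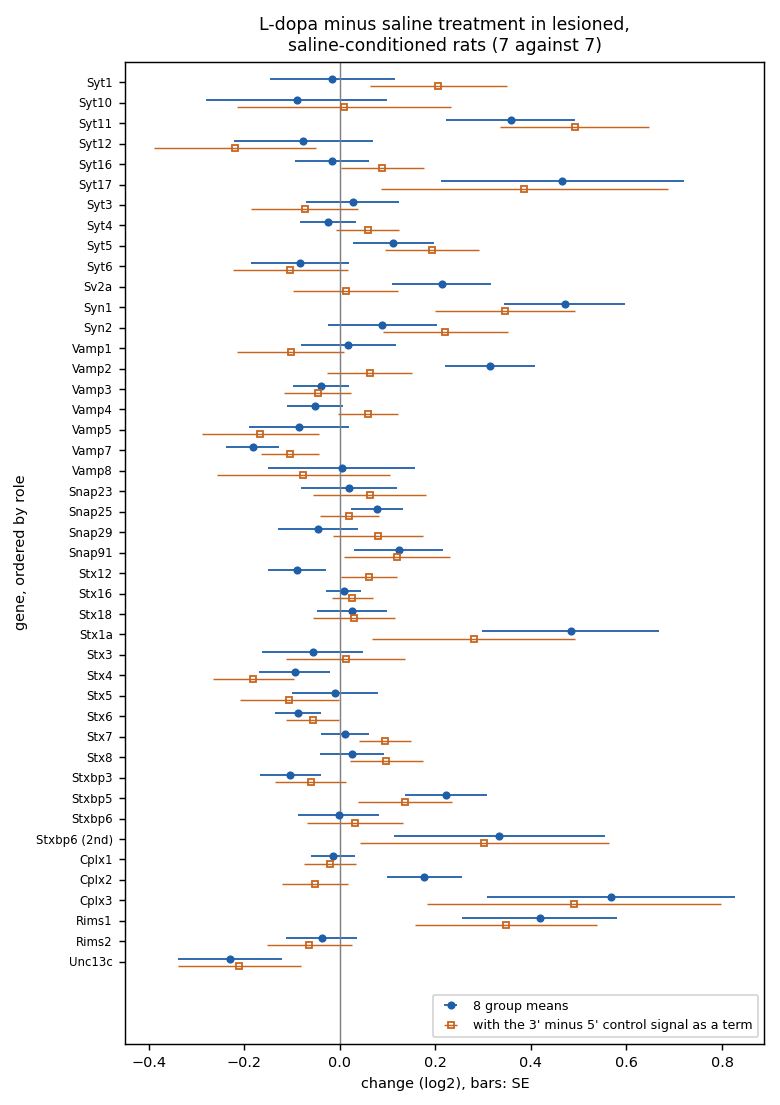
L-dopa minus saline in lesioned, saline-conditioned rats (log2, 7 against 7 rats) for each release gene, without (blue circles) and with (orange squares) the 3' to 5' measure as a term. Bars are the SE. Syn1 at 0.47 and Vamp2 at 0.32 lie above 0 without the term, and with it they lie at 0.34 and 0.06. The measure itself differs between the groups compared, so the term cannot tell RNA quality from L-dopa.

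RNA quality differed in this comparison, and markers of some cell types differed without passing the test. The excess of 3' over 5' control signal was 1.11 (SD 0.09, n = 7) with L-dopa and 0.87 (SD 0.10, n = 7) without, the highest and the lowest of the 8 groups. With this measure as a term, 3 of the 43 release genes were left at an unadjusted p under 0.05, and 5.99% of all probe sets. Syn1 was then at 0.34 ± 0.15 (limma adjusted p = 0.792), Vamp2 at 0.06 ± 0.09, Vamp7 at -0.10 ± 0.06, Stx1a at 0.28 and Rims1 at 0.35. Sv2a was at 0.01 and Cplx2 at -0.05 ± 0.07, so Vamp2, Sv2a and Cplx2 lost most of their difference in this fit, whereas Syt11 (0.49) and Cplx3 (0.49) did not. The measure ran from 0.973 to 1.254 with L-dopa and from 0.676 to 0.977 without, so the groups barely overlapped in it. RNA quality and L-dopa therefore cannot be told apart by this fit. Of 9 cortical markers, 6 were tested, 5 were higher with L-dopa and 0 were called, with differences from -0.05 (Lamp5) to 0.91 (Neurod2). The summed signal of the cortical markers was 1953, 2345 and 2601 with L-dopa and 1720, 2156 and 2604 without, so the groups overlapped. This sum is of unlogged signals, so Lamp5, the brightest marker and the 1 that was lower, weighs most in it. The dimmer markers that were higher count for little there. Both tested markers of cholinergic interneurons were lower with L-dopa (Chat by -0.46, Slc5a7 by -0.39). Of the choroid plexus, Ttr differed by -2.26 and Folr1, the other tested marker, by -0.12. Limma called 0 of the markers of these cell types. Of the spiny neuron markers 0 of 9 were higher with L-dopa, with differences from -0.47 to -0.02. The part of these cell types in the release gene differences was not tested.

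**Figure D5:**
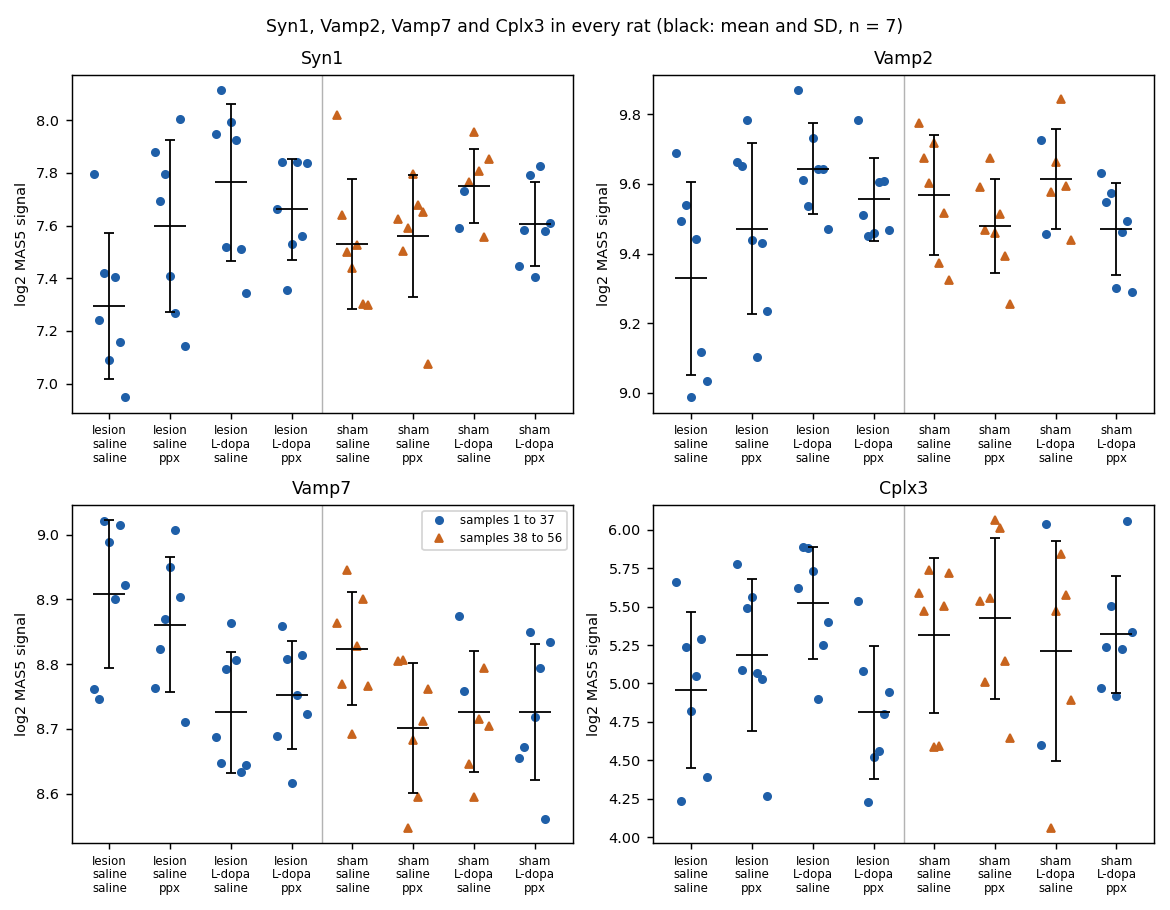
Log2 signal of Syn1, Vamp2, Vamp7 and Cplx3 in each rat of the 8 groups, with group means and SD (black, n = 7). Circles are samples 1 to 37 and triangles samples 38 to 56. In the lesioned, saline-conditioned rats L-dopa goes with a higher Syn1 (7.77 against 7.29) and Vamp2 (9.64 against 9.33) and a lower Vamp7 (8.73 against 8.91), with overlapping ranges, and Cplx3 has the widest spread of the genes drawn.

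Among lesioned rats conditioned with pramipexole the L-dopa comparison had 0 of 43 genes called, against 0% of all probe sets, and 1 at an unadjusted p under 0.05, against 5.14%. There Syn1 lay at 7.14, 7.69 and 8.00 without L-dopa and at 7.36, 7.66 and 7.84 with it. The smallest p-values were those of Stx5, a Golgi syntaxin (0.22, limma adjusted p = 0.933), Vamp7 (-0.11) and Stx16 (-0.07). Over all rats, 28 with L-dopa against 28 without, limma called 0 of 43, against 0.215%, with 6 at an unadjusted p under 0.05, against 10.9%. Vamp7 differed by -0.09 ± 0.03 (adjusted p = 0.165), Syn1 by 0.20 ± 0.06 (adjusted p = 0.196) and Cplx2 by 0.10 (adjusted p = 0.333). With the 3' to 5' term Cplx2 was at 0.0049, Syn1 at 0.15 and Vamp7 at -0.06. With the sample-number split as a term Syn1 differed by 0.24 ± 0.09 and Vamp7 by -0.13. These comparisons share rats with the one in saline-conditioned lesioned rats, so their values are not separate evidence. Stxbp6 differed over all rats by 0.23 ± 0.11 in the dimmer probe set (adjusted p = 0.451) and by -0.02 in the brighter.

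In sham rats conditioned with saline, L-dopa against saline gave 0 of 43 called, against 0.00537% of all probe sets, with 4 at an unadjusted p under 0.05, against 7.83%. Syt1 lay at 5.54, 6.38 and 6.53 without L-dopa and at 6.17, 6.75 and 6.96 with it, a difference of 0.45 ± 0.13 (limma adjusted p = 0.306, 6 of 7 rats). Stx5 differed by 0.25 ± 0.09 (adjusted p = 0.438) and Cplx1 by -0.13 ± 0.05 (adjusted p = 0.457, 7 of 7 rats). The difference of the L-dopa effect between lesioned and sham rats was tested directly. Its smallest p-values were those of Syt1 (-0.46 ± 0.19, adjusted p = 0.641) and Stx5 (-0.26 ± 0.13, adjusted p = 0.753), so no release gene was shown to respond to L-dopa differently in the models. At an unadjusted p under 0.05 lay 4 of the 43 genes, against 6.43% of all probe sets, and 0% of all were called.

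The release genes showed no change past the test with pramipexole conditioning either. Over 28 against 28 rats limma called 0 of the 43 release genes, against 0.0376% of all probe sets, and 2 lay at an unadjusted p under 0.05, against 5.08%. The smallest p-values were those of SNAREs of the Golgi and endoplasmic reticulum, Stx6 (-0.05, adjusted p = 0.910), Stx5 (-0.10, adjusted p = 0.945) and Stx18 (0.07, adjusted p = 0.960). With the sample-number split as a term Stx6 was at -0.09, and within samples 38 to 56 Stx5 turned to 0.11. In lesioned rats given L-dopa, where the study placed its question on reward, 0 of 43 were called, against 0.0161%, with 1 at an unadjusted p under 0.05, against 5.89%. That gene was Cplx3, at 4.90, 5.62 and 5.89 without pramipexole and at 4.23, 4.80 and 5.54 with it. The difference was -0.71 ± 0.26 (limma adjusted p = 0.755), and 6 of 7 rats lay below the saline mean. Syt1 differed by -0.25 (adjusted p = 0.850, 7 of 7 rats) and Syt12 by 0.25 (adjusted p = 0.858).

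In lesioned rats without L-dopa, pramipexole gave 0 of 43 called, against 0% of all probe sets, with 3 at an unadjusted p under 0.05, against 7.15%. Syn1 differed by 0.30 ± 0.13 (limma adjusted p = 0.631), Stx5 by -0.21 (adjusted p = 0.655) and Cplx2 by 0.18 (adjusted p = 0.663). With the 3' to 5' term Cplx2 was at 0.09. In sham rats without L-dopa, all numbered 38 to 56, 0 of 43 were called, against 0%, with 3 at an unadjusted p under 0.05, against 6.38%. These were Vamp7 (-0.12, adjusted p = 0.757), Stx16 (-0.08) and Cplx1 (-0.09). The interaction of L-dopa and pramipexole in lesioned rats called 0 of 43, against 0%, with 2 at an unadjusted p under 0.05, against 7.01%. Cplx3 gave -0.94 ± 0.37 (adjusted p = 0.699), Syn1 -0.41 ± 0.18 (adjusted p = 0.710) and Stxbp5, a syntaxin-binding relative of the tumour suppressor lgl, -0.24 ± 0.12 (adjusted p = 0.712).

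The sample-number split was also measured on its own, as samples 38 to 56 minus samples 1 to 37 with the 8 groups in the fit. Limma called 0 of the 43 genes, against 0.0859% of all probe sets, and 1 lay at an unadjusted p under 0.05, against 3.81%. Stx6 gave -0.17 ± 0.07, Syt10 0.54 ± 0.29 and Stxbp5 -0.21 ± 0.13, each with an adjusted p of 1.00. The error is large because 2 rats stand against 5, so a shift of the size of the Syt16 change was not detectable in this term.

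The remaining members named by role are given for the lesion comparison of 28 against 28 rats. Syt4, a synaptotagmin with a mean log2 signal of 10.57, changed by -0.03 ± 0.03, and Vamp5 (5.72) by -0.08 ± 0.05. The dimmer Syt4 probe set changed by 0.16 ± 0.07 (limma adjusted p = 0.174). Stx3 (5.73) changed by -0.04 ± 0.05, Stxbp3 (9.11) by 0.04 ± 0.03 and Unc13c (8.25), a priming factor of the active zone, by -0.03 ± 0.05. Limma called 0 of these 5. The means are given to identify the probe sets, since signals of different probe sets depend on the probes. Snap91 carries a matching name but encodes the clathrin assembly protein AP180, which acts in vesicle retrieval.

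A gene can carry several probe sets, and 13 of the 43 genes had 15 further ones among those tested. In the lesion comparison 6 of the 15 had the sign of the brightest probe set, and for L-dopa in saline-conditioned lesioned rats 11 of 15 did. The Stxbp6 probe set described above was the 1 of these 15 that limma called with the lesion.

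Genes of the vesicle cycle outside the naming rule (retrieval, transport, filling and scaffold genes) were taken as a list of 54, of which 45 were tested. With the lesion 3 of 45 were called in limma, 1 higher and 2 lower, against 5.07% of all probe sets. Sh3gl1, an endophilin that shapes membranes in retrieval, fell by 0.21 ± 0.05 on the log2 scale (adjusted p = 0.0093). Sv2b, the relative of Sv2a that the naming rule leaves out, fell by 0.23 ± 0.07 (adjusted p = 0.030). Apba1, an adaptor protein of presynaptic terminals, rose by 0.20 ± 0.06 (adjusted p = 0.028). With the sample-number split as a term the changes were -0.19, -0.20 and 0.10, each with an adjusted p of 0.998. In the other comparisons limma called 0 of the 45, where the share called over all probe sets was between 0 and 1.07%.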

How the data were processed

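Dorsal striatal RNA, 100 ng from each rat, was hybridized to 1 array. The signals come from MAS 5, per the submitters' processing notes; its scaling target is not given in the sources used here. The values the authors deposited are log2 signals and were used as deposited. No table column was left unused (0 sample columns). One detail of the lesion vector and some genes are not reported here.

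Besides 57 controls there are 31042 probe sets; 18625 passed the filter, which keeps means over the 40th percentile (4.99). Gene symbols come from the array annotation, and 44 of 44 described probe sets matched the RefSeq gene table by gene number. A model of 8 group means over 56 arrays was fitted with limma 3.58.1 (R 4.3.3) and eBayes, two-sided, with Benjamini-Hochberg adjustment within each comparison. The script was tested on simulated data. Groups follow the labels, which describe each sample as extracted individually from 1 rat. Rats beyond the mean of the matched group are counted beside a change.

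The members, gene lists, comparisons and alternatives were chosen with earlier results of these data known. The text names, per comparison, the called genes or else the 3 of smallest p, both Stxbp6 probe sets, the brightest and dimmest gene of each role, the most and least variable gene, and a set of core release genes (Syt1, Snap25, Stx1a, Vamp2, Rims1, Cplx1, Cplx2, Syn1, Syn2, Sv2a). Other genes are named only where stated. Alternatives were the sample-number split as a block or within its ranges, each rat left out, quantile normalization, a trended and robust prior, array weights, the 3' to 5' term, 16 added to the signals, other filters, fits of only the groups compared, and the mean of a gene's probe sets.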

Additional observations from a re-analysis of the deposited data

Results flagged for a closer look

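Within each group of 7 rats, the highest or lowest rat was set against the gap to its neighbour (Dixon's criterion at 95%, 0.568 of the range for 7 rats). Chance marks about 1 in 20 groups. Of 352 groups examined, 31 held such a rat, in 23 genes. The rats are named by sample number and the values are log2 signals. No explanation was weighed.

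Sample 49, a sham rat given saline and pramipexole, stood apart for 6 genes: Stx1a at 5.59, Syn1 at 7.08, Syn2 at 8.05 and Syt17 at 5.86 were the lowest of its group, and Stxbp3 at 9.33 and Vamp3 at 9.02 the highest. Its summed signal of cortical markers, 1577, was the lowest of the 56 rats. Sample 29, a sham rat given both drugs, stood apart for 5 genes: Stx12 at 8.94, Syt16 at 7.81, Syt4 at 10.32 and Vamp4 at 8.38 were lowest, and Cplx2 at 11.37 was highest. Its excess of 3' over 5' control signal, 1.29, was the highest of the 56 rats. The part of either measure in these values was not tested. Of the other rats of that group, sample 33 was lowest for Vamp1 at 8.38 and for the dimmer Stxbp6 probe set at 6.78.

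Among lesioned rats given both drugs, sample 3 was lowest for Stxbp5 at 7.65 and Syt17 at 5.98 and highest for Stx6 at 9.07. Sample 2 was lowest for Rims2 at 6.57 and for the brighter Stxbp6 probe set at 8.47, and sample 1 was highest for Stx16 at 9.02. Among lesioned rats given L-dopa and saline, sample 8 was highest for Rims1 at 6.25 and sample 9 for Syt11 at 5.65. Among lesioned rats given pramipexole alone, sample 20 was lowest for Stxbp3 at 8.80 and sample 21 highest for Syt6 at 7.11. Among undrugged lesioned rats, sample 22 was highest for Vamp1 at 9.04, sample 25 highest for Stx12 at 9.69 and sample 23 lowest for Vamp4 at 8.43.

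Among sham rats given L-dopa and saline, sample 40 was lowest for Syt17 at 6.98 and sample 41 for Vamp5 at 5.28. Among sham rats given pramipexole alone, sample 44 was highest for Syt5 at 7.02. Among undrugged sham rats, sample 53 was lowest for Rims2 at 6.80 and for Syt1 at 5.54.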

How the results depend on the processing

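No paired analysis was possible because each rat has its own number and no number is shared between groups. Of 131 counts of release genes called under the alternatives, 127 stayed within 1.5 times the reported count. Only the lesion over all rats had a reported count above 0, and there 6 of 10 alternatives stayed. Every other comparison had a reported count of 0 and stayed at 0. The count for the lesion (1 of 43) became 0 with the sample-number split as a block, 0 within samples 1 to 37, 2 with the 3' to 5' term and 2 with the mean of a gene's probe sets. With any 1 rat left out, the count for L-dopa in saline-conditioned lesioned rats ran from 0 to 1. The cause of these changes was not tested. Of 571 single values, 555 kept their direction and their side of the threshold, 4 lost a call, 1 gained one and 11 changed sign.

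For the brighter Stxbp6 probe set, L-dopa in saline-conditioned lesioned rats gave 0.0080 with quantile normalization, 0.0012 with array weights, 0.031 with the 3' to 5' term and 0.17 with the mean of its probe sets. That mean gave 0.10 for L-dopa over all rats and 0.091 in saline-conditioned sham rats, and pramipexole over all rats gave 0.0074 with array weights. For the dimmer one, pramipexole over all rats gave 0.031 with array weights, 0.0018 with the 3' to 5' term and 0.00017 with 16 added. Stx5, at -0.10 for pramipexole over all rats, gave 0.11 within samples 38 to 56.

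With 1 rat left out, the dimmer Stxbp6 probe set ran from -0.041 to 0.040 for pramipexole over all rats, from -0.031 to 0.24 for L-dopa in pramipexole-conditioned lesioned rats, from -0.30 to 0.027 for pramipexole in lesioned L-dopa rats and from -0.13 to 0.13 for pramipexole in sham rats. The brighter one ran from -0.049 to 0.065 for L-dopa in saline-conditioned lesioned rats, from -0.018 to 0.084 for pramipexole in lesioned saline rats and from -0.083 to 0.019 for the lesion without drugs.

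The sample-number split limits the lesion result: 28 lesioned rats and 9 sham rats lie on one side and 19 sham rats on the other. Detection calls were not used, so whether a dim probe set such as that of Cplx3 or Syt10 lies above background is not known here.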
